A study of Mus musculus with 36 samples.

Results

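Transfer RNA (tRNA) repeat families are the entries of the count table that a repeat annotation groups by the tRNA they resemble, and they were taken as every entry whose name ends in the class tRNA. There were 60 of them among 1561 repeat families, and 56 passed the filter on low counts that left 1492 repeat families for testing. Each name holds an amino acid and, except in the 3 methionine families, a codon (tRNA-Lys-AAA, for lysine and AAA), Y stands for C or T, and 10 names recur with a trailing _ sign whose meaning the files do not give. A family is counted as a whole over its copies, functional genes and degenerate copies alike, so its count has no single position in the genome.

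The study placed dCas9 on the major satellite repeat (MSR), the repeat of mouse pericentric heterochromatin, in MEF cells (mouse embryonic fibroblasts) and measured total RNA by sequencing. The MSR-dCas9-Control line carried dCas9 alone and the MSR-dCas9-Activator line carried dCas9 fused to the transcriptional activator VPR. Both lines carried a constitutive guide RNA against the MSR on the same PiggyBac plasmid as a doxycycline-inducible effector, and both were hygromycin-selected cultures rather than single clones. Each line was sampled uninduced, induced with 10 ng/ml of doxycycline, or taken 3, 6, 12 and 24 h after change to fresh medium without it, with 3 replicates in each of the 12 groups. MSR-dCas9-Control cells were exposed to it for 24 h but MSR-dCas9-Activator cells for 6 h, so that after induction the effector, the line and the length of exposure cannot be told apart. The study's methods call the replicates biological, and neither the labels nor the methods say how their cultures were kept apart. Libraries of cells with a repressor are not analysed here.

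A tRNA brings an amino acid to the ribosome and reads the codon with its anticodon. Its genes are transcribed by RNA polymerase III from a promoter inside the gene, formed by an A box and a B box that the factor TFIIIC binds, after which TFIIIB recruits the polymerase, and the repressor MAF1 restrains it. The precursor is trimmed by RNase P and RNase Z, receives a CCA tail, is modified at many bases, leaves the nucleus and is charged by an aminoacyl-tRNA synthetase. The libraries were made with a kit for long total RNA, in which short and modified mature tRNAs are poorly captured, so a family's count does not separate mature tRNA from precursors or from longer transcripts that run through a tRNA-like copy.

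Because families have no position, single tRNA genes of RefSeq on the GRCm38 build serve to show what the families look like and where such genes lie. The RefSeq annotation used here held 402 nuclear tRNA genes on 19 chromosomes, of which 16 lay in an exon, 62 in an intron and 324 between genes of the GENCODE M21 annotation. Chromosome 13 held 105 of them, chromosome 6 held 52, of which 48 have the cysteine anticodon GCA, chromosome 11 held 47 and chromosome 3 held 40. The following 7 are shown because 4 of them lie in genes that were counted separately and are described below, and 3 have anticodons that read the codons of families with large changes. The codons that n-TAagc16 reads are also those of tRNA-Ala-GCY_, which was not higher in the MSR-dCas9-Activator line from induction on. Capitals mark the anticodon and then the match to the B box motif GTTCNANNC.
n-TStga2, serine, chr13:21924935-21925016, minus strand: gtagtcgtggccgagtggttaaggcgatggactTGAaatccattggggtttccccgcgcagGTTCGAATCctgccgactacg
n-TSaga9, serine, chr4:10874064-10874145, plus strand: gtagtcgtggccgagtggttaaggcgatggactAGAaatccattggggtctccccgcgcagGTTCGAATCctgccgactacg
n-TItat14, isoleucine, chr13:21896938-21897031, minus strand: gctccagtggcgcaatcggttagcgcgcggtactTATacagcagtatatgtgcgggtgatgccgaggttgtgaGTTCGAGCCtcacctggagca
n-TRtcg5, arginine, chr7:79466419-79466491, plus strand: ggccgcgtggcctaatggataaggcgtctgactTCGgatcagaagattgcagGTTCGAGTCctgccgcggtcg
n-TAagc16, alanine, chr13:21222586-21222657, plus strand: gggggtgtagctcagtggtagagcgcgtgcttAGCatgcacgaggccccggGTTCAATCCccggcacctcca
n-TVcac9, valine, chr13:23446142-23446214, minus strand: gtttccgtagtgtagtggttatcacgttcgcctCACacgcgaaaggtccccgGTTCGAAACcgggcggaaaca
n-TTagt9, threonine, chr7:35234770-35234843, minus strand: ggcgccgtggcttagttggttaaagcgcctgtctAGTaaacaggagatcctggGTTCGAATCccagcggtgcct

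The motif was found in 13 of 13 nuclear tRNA gene sequences that could be read here, and on either strand in 3.21% of 32544 stretches of 94 bases from RefSeq promoter windows, a length taken from the longest of the genes. A match to these letters is a description of the sequence and was not tested as a binding site. The mitochondrial genome encodes its own tRNAs. Its serine tRNA for the TCN codons is printed for comparison with the family tRNA-Ser-TCA(m), again with the anticodon in capitals. A match to the motif letters also occurs in this mitochondrial sequence and is left in lower case.
mt-Ts1, serine, chrM:6870-6938, minus strand: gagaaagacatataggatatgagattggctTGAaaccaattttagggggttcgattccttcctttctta

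Libraries held 27376846 to 57371803 gene counts (median 42865961) and 7776 to 28126 counts in tRNA families (median 14578.5). Values below are normalised counts, that is counts divided by the TMM-scaled gene counts of the library and brought to the mean library, unless another scale is named. Of the 10 fibroblast marker genes Thy1 reached 10 counts in 0 libraries and the others did in all 36, with summed normalised counts of 480061 to 1480186 per library. At 24 h the sums were 480061 to 865677 in MSR-dCas9-Activator and 989203 to 1096069 in MSR-dCas9-Control cells. The sum of the endothelial markers Pecam1, Cdh5 and Kdr was 3.91 to 36.7 in all MSR-dCas9-Control libraries and 223 to 1405 in MSR-dCas9-Activator libraries from induction on. Most of the latter sum was Pecam1, with a mean of 579.7 after induction, where Cdh5 had 4.46 and Kdr 5.35. Cdh5 was at 0 in replicate 2 of the MSR-dCas9-Activator line at 24 h. The 4 epithelial markers summed to 19.5 to 52.6 in MSR-dCas9-Control and 39.6 to 149.99 in MSR-dCas9-Activator libraries, the 3 haematopoietic ones to 177 to 249.9 and 190.1 to 495, and the 3 pluripotency ones to 13.9 to 46.7 and 24.9 to 87.4. The part of these shifts in the results below was not tested. In cultures of this kind a lower count cannot tell fewer cells of a type from less RNA per cell. The MSR family itself (GSAT_MM) was counted 951 to 1968 times in MSR-dCas9-Control libraries, 2234 to 4233 times in uninduced MSR-dCas9-Activator libraries and 99120 to 2003898 times in MSR-dCas9-Activator libraries from induction on.

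Levels of the families were very unequal. tRNA-Ala-GCY_ alone held 38.3% of all counts in tRNA families, tRNA-Ser-TCA(m) 12.3% and tRNA-Ala-GCA 11.7%, whereas tRNA-Gly-GGY, next in order, held 2.77%. Mean normalised counts over the 36 libraries were at least 100 in 24 families, between 10 and 100 in 29 and below 10 in 7. Counts are not corrected for the number or length of copies, so this order is not one of expression per gene. Of the 56 families tested, 53 reached 10 counts in at least 3 MSR-dCas9-Control libraries. tRNA-Ile-ATA and tRNA-Pro-CCG reached this only in MSR-dCas9-Activator libraries, so that a difference was built into their passing, and tRNA-His-CAY reached it in neither line. The 4 families not tested were tRNA-Gln-CAA_, tRNA-Leu-TTA(m), tRNA-Ser-TCA and tRNA-Tyr-TAT, with 32, 7, 11 and 3 counts in all 36 libraries together.

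The first question was whether the lines differed before the effector was induced. Each difference between lines was tested with edgeR's quasi-likelihood test on all repeat families, and a family was called higher or lower in MSR-dCas9-Activator cells when the p-value after Benjamini-Hochberg adjustment lay under 0.05 and the log2 fold change exceeded 0.5 in size. In uninduced cells 0 of 56 tRNA families were called by edgeR's quasi-likelihood test, 3 had an unadjusted p-value under 0.05, and DESeq2 also called 0. Over all repeat families 0.067% were called higher and 0.0% lower. The median log2 difference was 0.19 over tRNA families and 0.03 over all repeat families. All 3 MSR-dCas9-Activator libraries lay above all 3 MSR-dCas9-Control libraries for 3 tRNA families and below them for 1, where 3.42% and 1.81% of all repeat families did so.

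Most tRNA families were called higher in the MSR-dCas9-Activator line from 3 h on. At the end of induction 25 were called higher and 2 lower, against 20.2% and 12.3% of all repeat families. By 3 h there were 42 higher and 4 lower (all repeat families: 31.0% and 15.8%), and by 6 h there were 44 and 3 (34.4% and 11.2%). At 12 h 45 were higher and 2 lower (45.4% and 5.76%), and at 24 h 42 and 1 (29.0% and 2.28%). With scaling to 13 mitochondrial mRNAs in place of all genes the split was 16 higher and 5 lower after induction and 35 and 7 at 6 h. The share of all repeat families under that scaling is not given here. Those mRNAs were not level between the lines when scaled by all genes. The log2 difference of mt-Co3 was 0.73 after induction and 1.10 at 6 h, both called, and that of mt-Nd1 was 0.05 and 0.21, not called. This applies wherever that scaling is named below. As shares of the 56 tested, the families called higher were 44.6%, 75.0%, 78.6%, 80.4% and 75.0% in this order of time. The median log2 difference over tRNA families was 0.88 after induction and then 1.52, 1.72, 2.31 and 1.50 at the 4 later times, while that over all repeat families was 0.00, 0.11, 0.21, 0.45 and 0.24. The median at 12 h corresponds to a 4.97-fold higher count.

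The groups of libraries were often apart. All 3 MSR-dCas9-Activator libraries lay above all 3 MSR-dCas9-Control libraries for 31 tRNA families after induction and then for 42, 43, 46 and 32 in order of time, where 20.0%, 35.8%, 44.2%, 59.9% and 44.8% of all repeat families did so. They lay below for 3, 6, 4, 3 and 2 tRNA families, where 19.9%, 24.6%, 13.2%, 10.2% and 5.56% of all repeat families did so. The difference was largest at 12 h for 39 of the 56 families.

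**Figure D1:**
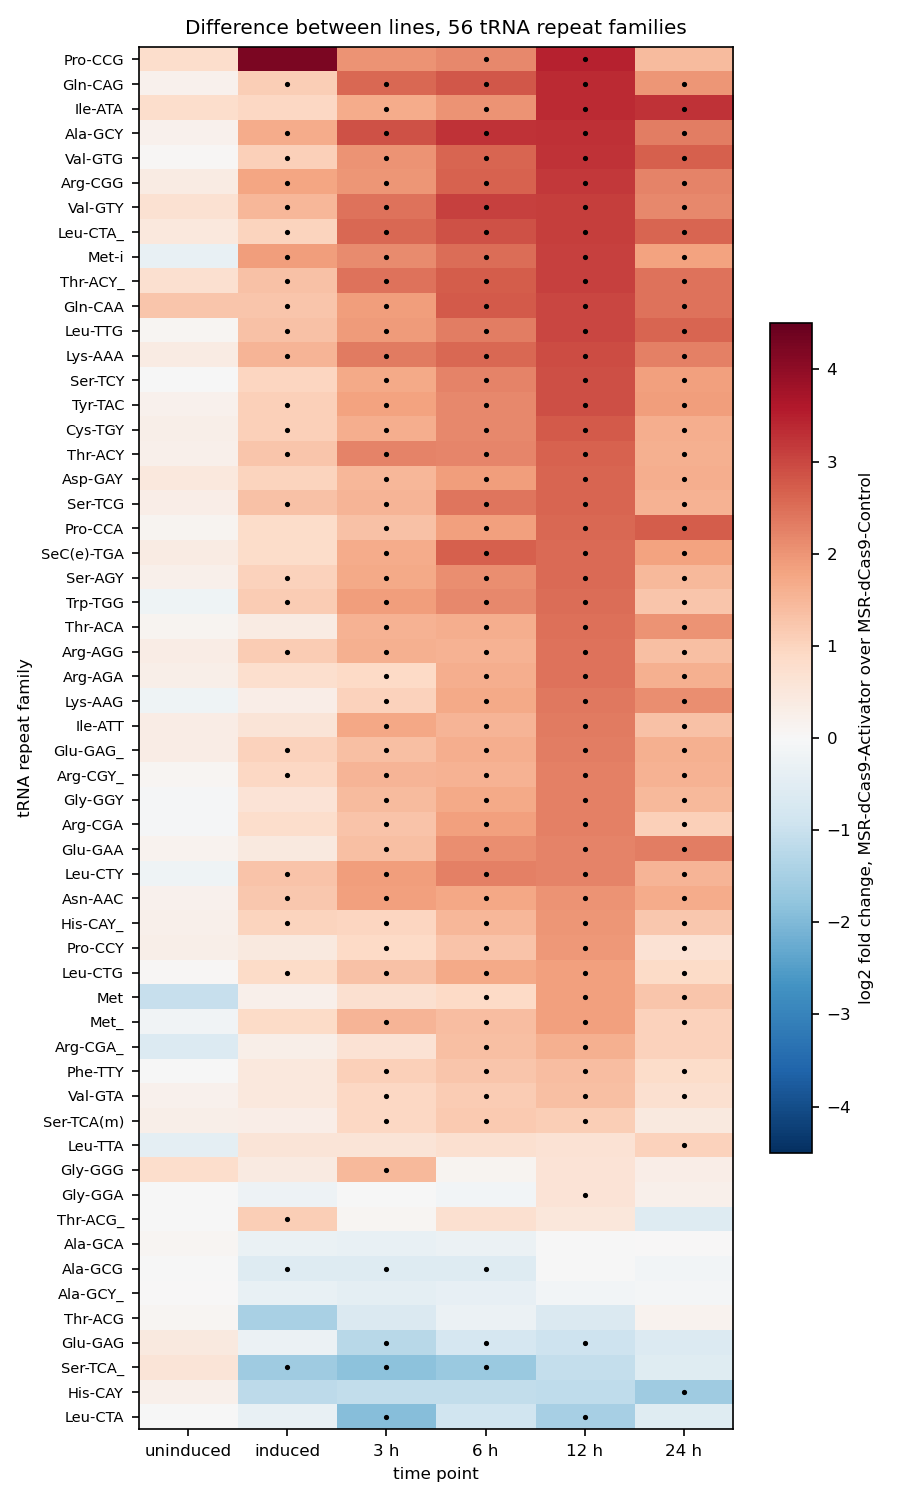
Log2 fold change of MSR-dCas9-Activator over MSR-dCas9-Control libraries (colour, positive where higher in MSR-dCas9-Activator) for each of the 56 tested tRNA families (one line of the map each) at the 6 time points (columns). Most families are near 0 before induction and reach their largest difference at 12 h, where 45 were called higher and 2 lower.

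Of the 48 families called higher at 1 or more of the 5 times from induction on, 24 were called at all 5 times, 16 at 4 and 8 at 1 to 3. The first call came at the end of induction for 25 families, at 3 h for 18 and at 6 h for 3, and 1 family each was first called at 12 h and at 24 h. Matching counts of calls over time for all repeat families are not given here. At single times from induction on, 301 to 677 of the 1492 repeat families were called higher. The 5 families called lower at any time were never called higher, and 3 families were not called at any time (tRNA-Ala-GCA, tRNA-Ala-GCY_ and tRNA-Thr-ACG, the last named after its values were seen). The difference between lines was also set against the difference they had before induction, and this excess was called higher for 2 families and lower for 2 at the end of induction (all repeat families: 11.8% and 9.85%). At 3 h it was called higher for 28 and lower for 4 (24.3% and 13.3%), and at 6 h for 38 and 3 (26.5% and 9.72%). The counts were 43 and 1 at 12 h (40.2% and 4.76%) and 23 and 0 at 24 h (19.9% and 0.871%).

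Families with strong increases belonged to several amino acids. tRNA-Ala-GCY, for the alanine codons GCC and GCT, had 48.9, 50.9 and 61.0 normalised counts in uninduced MSR-dCas9-Control cells and 88.2, 44.0 and 50.9 in uninduced MSR-dCas9-Activator cells, and these overlapped. In the MSR-dCas9-Activator line it had 220.1, 116.5 and 183 after induction, then 429, 201 and 349.9 (3 h), 604, 206 and 458 (6 h), 705, 348 and 649.5 (12 h), and last 488, 156 and 430.5 (24 h). The MSR-dCas9-Control libraries at 12 h had 59.3, 59.2 and 49.6. Every MSR-dCas9-Activator library from induction on was above every MSR-dCas9-Control library of its time, and replicate 2 was the lowest of the 3 each time. The log2 fold change between lines was 1.68 (SE 0.38) after induction and 3.27 (SE 0.37) at 12 h, with adjusted p-values of 0.000912 and 4.45e-08 in edgeR's quasi-likelihood test.

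Of the valine families 2 had log2 differences above 3 at 12 h. tRNA-Val-GTY had 102, 109.8 and 74.4 normalised counts in MSR-dCas9-Control cells at 12 h and 1198, 499.7 and 910.1 in MSR-dCas9-Activator cells, a log2 fold change of 3.11 (SE 0.36). tRNA-Val-GTG had 39.2, 41.2 and 30.8 against 533, 230.1 and 363 (log2 fold change 3.24, SE 0.34). Neither family's groups overlapped at 12 h. In the whole time course tRNA-Val-GTY differed by 0.68 before induction, which was not called, and by 1.50 after it, 2.45 and 3.07 in the next samplings (3 and 6 h) and 2.18 in the last (24 h), all on the log2 scale.

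tRNA-Gln-CAG, for glutamine, had the largest log2 difference at 12 h among those whose mean reached 100 normalised counts. Its counts were 73.1, 93.5 and 58.5 in MSR-dCas9-Control and 1178, 492 and 836 in MSR-dCas9-Activator cells, 10.3-fold higher by the fit (log2 fold change 3.37, SE 0.42, edgeR adjusted p 2.33e-07). Already after induction the MSR-dCas9-Activator libraries, at 228, 129.6 and 175, lay above the MSR-dCas9-Control libraries, at 68.9, 95.5 and 73.0. The call at that time was near the limit (log2 fold change 1.11, edgeR adjusted p 0.0363).

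tRNA-Lys-AAA, for lysine, had 36, 49.8 and 32.7 normalised counts at 12 h in MSR-dCas9-Control cells and 435, 202 and 333 in MSR-dCas9-Activator cells (log2 fold change 2.94, SE 0.43). tRNA-Leu-CTY, for leucine, had 52.9, 63.5 and 47.6 against 329.8, 173 and 298 (2.22, SE 0.31), and tRNA-Thr-ACY, for threonine, had 72.0, 71.2 and 56.6 against 604, 245.5 and 483 (2.67, SE 0.32). The groups were apart in each of these families, and replicate 2 was again the lowest of the MSR-dCas9-Activator libraries. All 3 were called at each of the 5 times from induction on.

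tRNA-Gly-GGY, for glycine, is the most abundant family of those that rose several-fold. Its MSR-dCas9-Control libraries at 12 h had 236, 233 and 199 normalised counts and its MSR-dCas9-Activator libraries 1533, 674 and 1187 (log2 fold change 2.28, SE 0.27). It was not called at the end of induction (log2 fold change 0.61, edgeR adjusted p 0.0639), although all 3 MSR-dCas9-Activator libraries (443, 260.4 and 328) were above the MSR-dCas9-Control libraries (252, 215 and 196).

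tRNA-Pro-CCA, for proline, had a later course. Its log2 difference was 0.83 after induction, which was not called, and then 1.33, 1.84, 2.58 and 2.72 in order of time. At 24 h the MSR-dCas9-Activator libraries had 573, 130.0 and 578 normalised counts and the MSR-dCas9-Control libraries 53.8, 79.0 and 51.0, so that the groups were apart but replicate 2 was far below the other MSR-dCas9-Activator libraries. Within the MSR-dCas9-Activator line tRNA-Pro-CCA was higher at 24 h than at the end of induction by 1.81 (SE 0.33) on the log2 scale, and this change exceeded that of the MSR-dCas9-Control line by 1.89 (SE 0.50, edgeR adjusted p 0.0212).

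**Figure D2:**
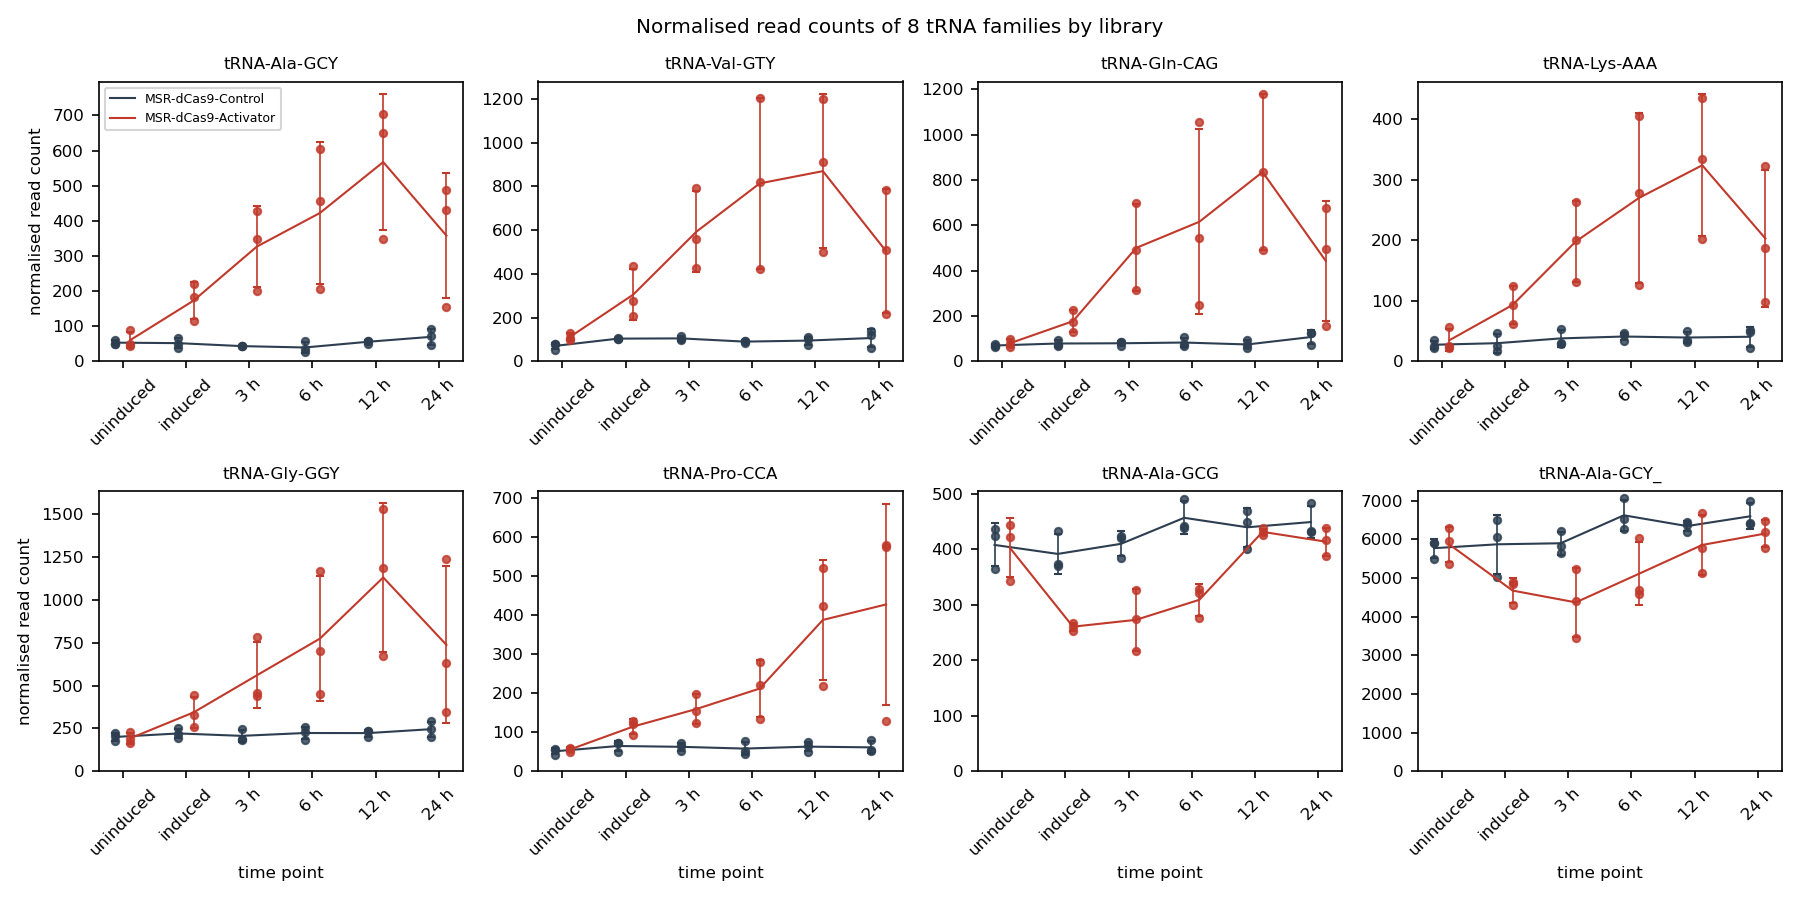
Normalised counts of 8 tRNA families by time point for each library (points), with the mean (line) and SD of 3 replicates (bars), in both lines. tRNA-Ala-GCY, tRNA-Val-GTY, tRNA-Gln-CAG, tRNA-Lys-AAA, tRNA-Gly-GGY and tRNA-Pro-CCA climb in the MSR-dCas9-Activator line, tRNA-Ala-GCG is lower from induction to 6 h and tRNA-Ala-GCY_ stays between 3454 and 7060.

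Several families were low in MSR-dCas9-Control cells, and their values were looked at after their calls were known. The initiator family tRNA-Met-i, which reads the start codon, had 7.13, 15.4 and 10.9 normalised counts in MSR-dCas9-Control cells after induction and 57.7, 28.6 and 39.6 in MSR-dCas9-Activator cells, which did not overlap (log2 fold change 1.88, SE 0.40). At 12 h it differed by 3.09 (SE 0.36). The selenocysteine family tRNA-SeC(e)-TGA, which decodes a UGA codon, had 13 ± 2.54 (SD, n = 3) and 82.5 ± 45.5 normalised counts at 12 h, a log2 fold change of 2.55 (SE 0.39). tRNA-Pro-CCG had no counts in the induced MSR-dCas9-Control libraries, for which no fold change is given, and 1.21 ± 1.29 against 16.2 ± 8.47 normalised counts at 12 h (n = 3 each).

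By amino acid, at 12 h all families of arginine (6 of 6, median log2 difference 2.36), valine (3 of 3, 3.11), proline (3 of 3, 2.58, among them tRNA-Pro-CCG, whose difference was built into its passing the filter), methionine (3 of 3, 1.85) and glutamine (2 of 2) were called higher. Of the serine families 4 of 5 were called higher, of the threonine families 3 of 5, of the leucine families 4 of 6 with 1 lower, of the glutamate families 2 of 3 with 1 lower, and of the glycine families 2 of 3. The alanine families stood apart, with 1 of 4 called higher and a median of -0.02. Other amino acids are not listed here. Of all 1492 repeat families 677 were called higher and 86 lower at 12 h. By the last base of the codon, with the 3 methionine families counted under ATG, 14 of 18 families ending in A were called higher at 12 h, 14 of 19 ending in G and 14 of 16 ending in Y, with medians of 2.25, 2.39 and 2.41. tRNA-Ile-ATA is among the first of these and tRNA-Pro-CCG among the second. At the end of induction these counts were 3 of 18, 11 of 19 and 9 of 16, where 301 of 1492 repeat families were called higher. The 2 families ending in C were called higher at both times, and tRNA-Ile-ATT, which ends in T, is left out. Families that share an amino acid or codon can share sequence and reads, and differences between these classes were not tested.

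The 3 abundant alanine families were not higher than in MSR-dCas9-Control cells by the call at any time. tRNA-Ala-GCY_ had 5032, 6508 and 6072 normalised counts in MSR-dCas9-Control cells after induction and 4835, 4290.4 and 4896 in MSR-dCas9-Activator cells, which did not overlap. Its log2 difference was -0.32 (SE 0.13) then and -0.44, -0.38, -0.12 and -0.10 at the 4 later times, and it was not called at any time because no difference was beyond 0.5, although edgeR's adjusted p-values were 0.0329, 0.00223 and 0.00838 at the first 3 of these times. tRNA-Ala-GCA differed by -0.30, -0.32, -0.27, -0.02 and 0.02 at these times and was not called either. With scaling to 13 mitochondrial mRNAs both were called lower from induction to 12 h, tRNA-Ala-GCY_ by a log2 value of -0.66, -0.98, -1.04 and -0.69 and tRNA-Ala-GCA by -0.64, -0.87, -0.92 and -0.60.

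tRNA-Ala-GCG was lower in the MSR-dCas9-Activator line for a limited time. Its counts after induction were 373, 433 and 369.7 in MSR-dCas9-Control and 268, 254 and 261 in MSR-dCas9-Activator cells, with no overlap (log2 fold change -0.59, SE 0.16, edgeR adjusted p 0.00118). It remained lower at 3 h (-0.59) and 6 h (-0.56). At 12 h it had 469, 401 and 449.5 against 426, 438 and 431, which overlapped (log2 fold change -0.03, edgeR adjusted p 0.879). Within the MSR-dCas9-Activator line tRNA-Ala-GCG was lower after induction by a log2 value of -0.63 (SE 0.16) and higher again by 0.66 (SE 0.16) from the end of induction to 24 h.

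The other 4 families called lower had low counts, and they were named after their values were seen. tRNA-Glu-GAG was lower at 3, 6 and 12 h, with 39.9, 43.6 and 40 normalised counts in MSR-dCas9-Control and 18.1, 18.6 and 15.1 in MSR-dCas9-Activator cells at 3 h (log2 fold change -1.23, SE 0.34). tRNA-Ser-TCA_ was lower after induction and at 3 and 6 h, with 19.0, 20.3 and 26.4 against 5.77, 11.0 and 5.16 after induction (log2 fold change -1.61, SE 0.50). tRNA-Leu-CTA was lower at 3 and 12 h, with 24.5, 17.2 and 7.18 against 5.76, 3.53 and 3.23 at 3 h (log2 fold change -1.93, SE 0.56). In these 3 examples the groups did not overlap. tRNA-His-CAY was called lower at 24 h alone, with 23.4, 12.7 and 9.85 against 4.25, 10.5 and 1.10, which overlapped.

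Pairs of families with the same codon, with and without the _ sign, often differed in direction. Of the 10 such pairs 8 had both members tested. At 12 h tRNA-Leu-CTA was lower by a log2 value of -1.49 while tRNA-Leu-CTA_ was higher by 3.10, and tRNA-Glu-GAG was lower (-0.95) while tRNA-Glu-GAG_ was higher (2.29). tRNA-Ala-GCY was higher (3.27) while tRNA-Ala-GCY_ was not called (-0.12), and tRNA-His-CAY_ was higher (1.98) while tRNA-His-CAY was not called (-1.13). Both members rose for arginine CGA (2.27 and 1.58 with the _ sign), methionine (1.85 and 1.84) and threonine ACY (2.67 and 3.08), and neither tRNA-Thr-ACG (-0.65) nor tRNA-Thr-ACG_ (0.52) was called. tRNA-Leu-CTA_ in every library at 12 h had 20.1, 21.4 and 14.9 normalised counts in MSR-dCas9-Control and 235, 103 and 179 in MSR-dCas9-Activator cells, where tRNA-Leu-CTA had 11.6, 20.6 and 23.8 against 5.07, 9.63 and 4.37. A difference within pairs was not tested.

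**Figure D3:**
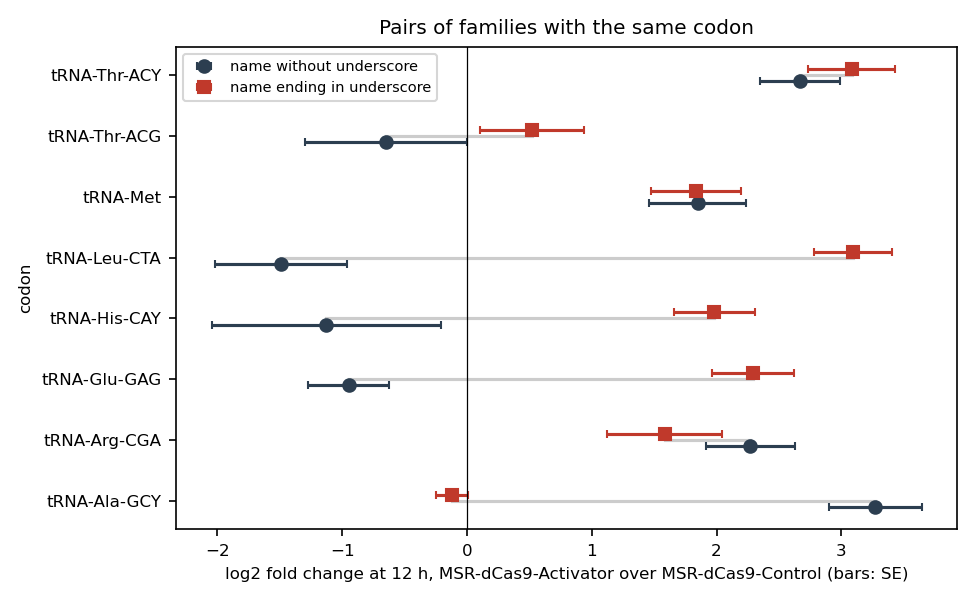
Log2 fold change of MSR-dCas9-Activator over MSR-dCas9-Control libraries at 12 h (horizontal axis, bars give the SE) for the 8 pairs of tRNA families with the same codon, without and with the trailing _ sign. The members lie on opposite sides of 0 for tRNA-Leu-CTA, tRNA-Glu-GAG, tRNA-His-CAY, tRNA-Ala-GCY and tRNA-Thr-ACG, and close together for tRNA-Met.

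Within each line, induction itself was compared with the uninduced state. In the MSR-dCas9-Activator line 26 tRNA families were called higher and 4 lower after induction, against 19.6% and 12.4% of all repeat families (11 and 9 with scaling to 13 mitochondrial mRNAs), with a median log2 change of 0.80 over tRNA families and 0.02 over all repeat families. In the MSR-dCas9-Control line 0 were called by edgeR's quasi-likelihood test, 3 had an unadjusted p-value under 0.05, DESeq2 called 0, and 0.0% of all repeat families were called in either direction. The change with induction differed between the lines for 4 families, against 11.8% of all repeat families in the higher and 9.85% in the lower direction. Of these tRNA-Met-i (2.22, SE 0.61) and tRNA-Leu-CTY (1.48, SE 0.46) rose more in the MSR-dCas9-Activator line, and tRNA-Ser-TCA_ (-2.19, SE 0.68) and tRNA-Ala-GCG (-0.57, SE 0.22), both called lower with induction in that line, differed in the lower direction. Without replicate 3 the families called for this difference were 0 and without replicate 2 they were 23.

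From the end of induction to 24 h after it, 27 families rose in the MSR-dCas9-Activator line and 0 fell, against 26.9% and 0.737% of all repeat families, with medians of 0.73 and 0.38. Of the 27, 15 had been called higher with induction, 2 lower and 10 neither. In the MSR-dCas9-Control line 0 changed by edgeR's quasi-likelihood test, 4 had an unadjusted p-value under 0.05, DESeq2 called 0, and 0.0% of all repeat families changed in either direction. The change was larger in the MSR-dCas9-Activator line for 5 families and smaller for 0, against 6.43% and 0.268% of all repeat families. Without the replicate number in the fit 2 families were called for this difference, and leaving out 1 replicate or library gave 1 to 16, with 1 without replicate 1, 2 without replicate 3 and 16 without replicate 2. The 5 were tRNA-Pro-CCA, tRNA-Val-GTG (1.63, SE 0.50), tRNA-Lys-AAG (1.81, SE 0.30), tRNA-Glu-GAA (1.84, SE 0.53) and tRNA-Leu-CTA_ (1.60, SE 0.49). tRNA-Lys-AAG, the lysine family for AAG, was not called at the end of induction, when it had 95.9, 114 and 94.7 normalised counts in MSR-dCas9-Control and 169, 96.7 and 114 in MSR-dCas9-Activator cells. At 24 h it had 128, 93.1 and 101.2 against 726, 231 and 471, and these did not overlap.

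Summed over all 60 families, tRNA counts changed less than their median. Per 1000000 gene counts the sum was 274 ± 5.41 (SD, n = 3) in uninduced MSR-dCas9-Control and 299 ± 34.1 in uninduced MSR-dCas9-Activator cells, 293 ± 18.1 and 301 ± 33.8 after induction, and 302 ± 21.2 and 547 ± 91.5 at 12 h, a ratio of 1.81 at the last of these. The sum mixes families that moved differently. The 3 abundant alanine families together had 190.2 ± 26.3 counts per 1000000 gene counts in MSR-dCas9-Control and 145 ± 7.17 in MSR-dCas9-Activator cells after induction. Without them and tRNA-Ser-TCA(m), a split chosen after the values were seen, the other 56 of the 60 families summed to 61.8 ± 8.62 in MSR-dCas9-Control cells at 12 h and to 423, 211 and 291 in the 3 MSR-dCas9-Activator libraries.

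**Figure D4:**
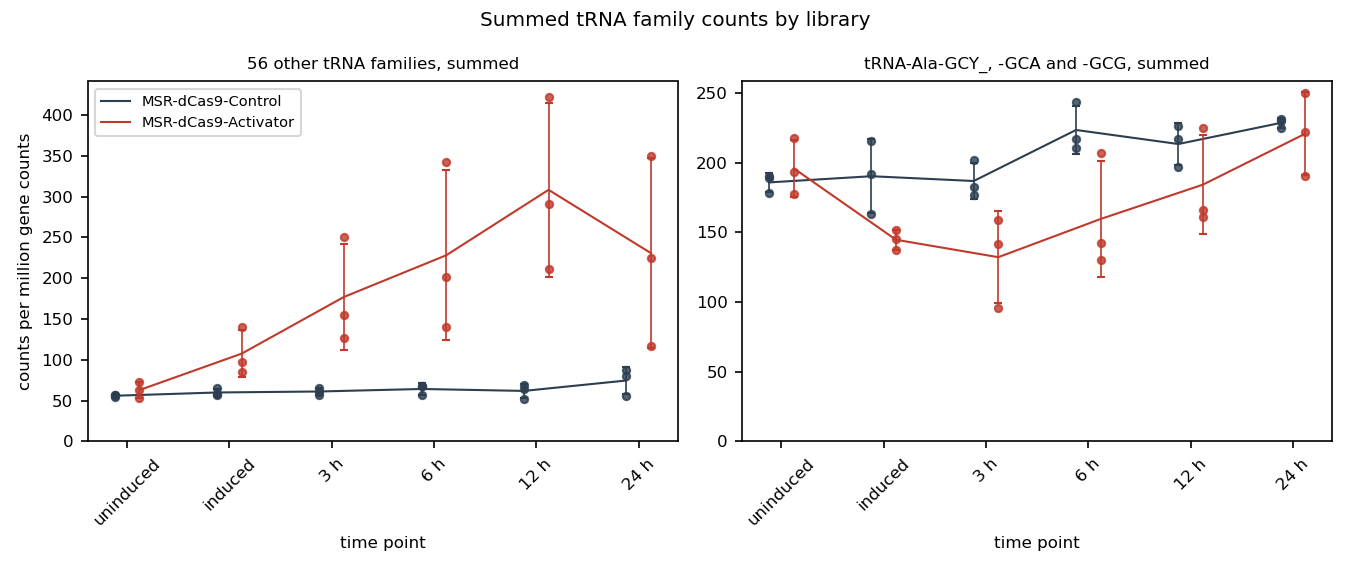
Summed counts per 1000000 gene counts by time point in each library (points), with the mean (line) and SD of 3 replicates (bars), for 56 of the 60 tRNA families (left, all but tRNA-Ser-TCA(m) and the 3 abundant alanine families) and for tRNA-Ala-GCY_, tRNA-Ala-GCA and tRNA-Ala-GCG (right). The sum of the 56 reaches 211 to 423 in MSR-dCas9-Activator cells at 12 h, while the alanine sum is lowest there at 3 h.

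tRNA-Ser-TCA(m) had smaller differences between the lines. It had 1083, 1029 and 1229 normalised counts at 12 h in MSR-dCas9-Control and 2747, 1897 and 2707 in MSR-dCas9-Activator cells, with no overlap (log2 fold change 1.12, SE 0.17), and was called at 3, 6 and 12 h. After induction 1 MSR-dCas9-Control library had 2684 where the others had 1371 and 1382, and the groups overlapped. The mitochondrial gene mt-Ts1 had 546, 522 and 345 normalised counts at 12 h in MSR-dCas9-Control and 1403, 664 and 920.3 in MSR-dCas9-Activator cells, a log2 fold change of 1.07 (SE 0.21). It was called higher at all 5 times from induction on. How reads that match both a gene and a family were shared is not stated, so the values of the gene and of the family may not be independent.

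The size of the rise varied among MSR-dCas9-Activator replicates in an order that most families shared. Replicate 2 was the lowest of the 3 for 38 of 56 families after induction and for 40, 43, 44 and 47 at the 4 later times, and it was the lowest for 35 before induction. Replicate 1 was the highest for 38, 44, 46, 44 and 38 families from induction to 24 h. The matching counts over all repeat families are not given here. At 12 h the repeat families 7SK (285301, 164782 and 249415 in replicates 1 to 3) and B2_Mm1a (414181, 200484 and 396264) had the same order. The 5S family (1167, 1430 and 1311) did not. GSAT_MM counts followed another order, with 151521, 99120 and 1059658 after induction and 335754, 824284 and 2003898 at 12 h in replicates 1, 2 and 3. Without replicate 3 in either line 9 tRNA families were called at the end of induction in place of 27, and without replicate 1 there were 14.

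Some tRNA genes have an entry of their own among the gene counts and so a position. These 10 genes were chosen after the files were seen, as GENCODE genes with an exon that holds a whole RefSeq tRNA gene. Gm44456, whose exon holds n-TStga2 on chromosome 13, had 7.41, 7.72 and 3.97 normalised counts at 12 h in MSR-dCas9-Control and 279, 101.1 and 176 in MSR-dCas9-Activator cells. It reached 10 counts in 15 MSR-dCas9-Activator libraries but in 2 of the other line, so that a difference was built into its passing the filter and no test of it is given. Mir1983, which holds n-TItat14 on chromosome 13, had 6.35, 14.6 and 8.93 against 98.4, 42.4 and 90.3 (log2 fold change 2.79, SE 0.42). Gm10616, which holds n-TRtcg5 on chromosome 7, had 24.4, 24.9 and 17.9 against 314, 185 and 288 (log2 fold change 3.49, SE 0.31). Both were called, where 38.3% of all genes were called higher and 28.3% lower at this time by the same limits. In all 3 genes the groups were apart at 12 h. Before induction Mir1983 and Gm10616 were not called, with log2 values of 0.68 and 0.25 and edgeR adjusted p-values of 0.775 and 0.906.

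n-TSaga9 on chromosome 4 had 0 counts in the 3 MSR-dCas9-Control libraries at 12 h and 23.3, 8.67 and 20.4 normalised counts in the MSR-dCas9-Activator libraries. Gm48356, which holds a serine tRNA gene, was also called higher at 12 h (2.04, SE 0.39). Gm17494 (0.48), Hes7 (0.12) and Mettl26 (-0.13), genes in which the tRNA lies inside a longer transcript, were not called at 12 h. At 6 h Gm17494 was called higher (0.62, SE 0.19). Myh8 and n-TStga1 did not pass the filter. n-TStga1 and n-TStga2 have the same sequence, with 0 differences, and n-TSaga9 differs from them at 2 positions, so reads cannot be assigned between them with certainty. Of the families named for the codon that n-TStga1 and n-TStga2 read, tRNA-Ser-TCA held 11 counts in all libraries together, tRNA-Ser-TCA_ 432 and tRNA-Ser-TCA(m) 66658. As given above, tRNA-Ser-TCA_ was called lower after induction and at 3 and 6 h. Which of these families the 2 genes belong to is not known here.

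**Figure D5:**
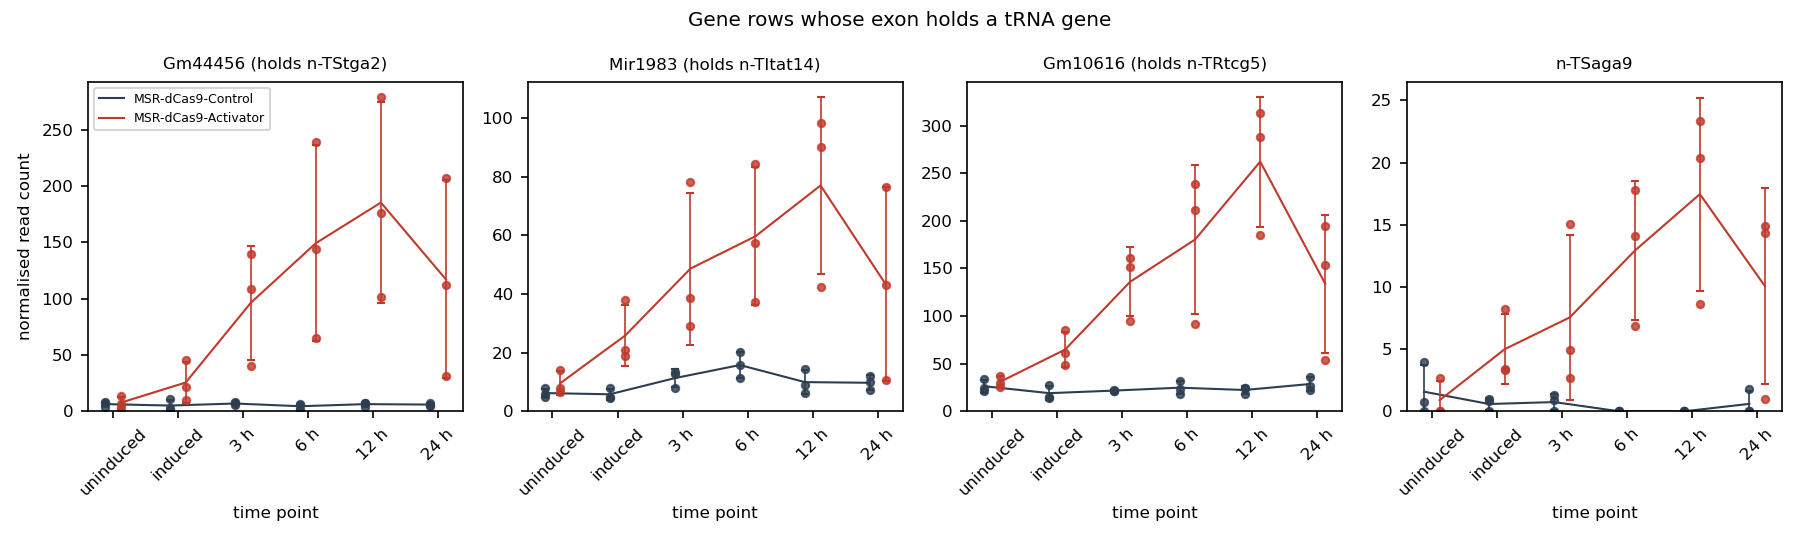
Normalised counts of 4 genes whose exon holds a tRNA gene (Gm44456, Mir1983, Gm10616 and n-TSaga9) by time point for each library (points), with the mean (line) and SD of 3 replicates (bars). MSR-dCas9-Activator libraries at 12 h reach 101 to 279 for Gm44456, where MSR-dCas9-Control libraries have 3.97 to 7.72. For Gm44456 and n-TSaga9 a difference was built into passing the filter.

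Other RNAs made by RNA polymerase III were set beside the tRNA families. Of the 9 genes for such RNAs 1 was called higher after induction, where 26.1% of all genes were, 3 at 3 h (33.5%), 8 at 12 h (38.3%) and 5 at 24 h (33.2%), with none lower and a median log2 difference of 1.23 at 12 h (with scaling to 13 mitochondrial mRNAs 3 of 8 were higher at 12 h and 0 higher and 1 lower after induction). Rn7sk, which holds back the elongation factor P-TEFb, differed by 1.26 at 12 h, Rn7s1, the RNA of the signal recognition particle, by 1.24, and Rpph1, the RNA of RNase P, by 1.18. Bc1, a neuronal RNA derived from a tRNA-Ala gene, is among the genes called at 12 and 24 h, but it reached 10 counts in 3 MSR-dCas9-Activator libraries and in 0 of the other line, so that a difference was built into its passing the filter. The repeat family BC1_Mm was not called at 12 h (log2 fold change -0.11). Among repeat families at 12 h, the B2 SINEs, short retroelements whose promoter comes from a tRNA, had 3 of 5 called higher (median 1.07), with B2_Mm1a at 2.30 and B2_Mm1t at 1.89. The B4 SINEs had 0 of 4 (median 0.02) and the ID SINEs 0 of 4 (median -0.09) called by edgeR. The class of LTR retroelements had 467 of 662 families called higher and 16 lower at 12 h with a median of 0.81. None of these groups was tested against the tRNA families.

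Few genes that make, process and use tRNAs were called higher. Of the 13 subunits of RNA polymerase III 0 were called higher and 3 lower after induction (all genes: 26.1% and 20.7%), and 0 and 7 at 12 h (38.3% and 28.3%), with a median log2 difference of -0.51 at 12 h. Polr3e was lower by a log2 value of -1.19 after induction and -1.44 at 12 h, and Polr3g by -0.77 and -1.19. The largest subunit Polr3a, with -0.09 and -0.24, was not called at either time. Of the 12 genes for TFIIIA, TFIIIB, TFIIIC and MAF1 0 were higher and 3 lower after induction, and 1 and 4 at 12 h. The TFIIIC subunit Gtf3c4 (-1.50 and -1.77) and the TFIIIB subunit Brf1 (-0.59 and -0.72) were lower at both times, Brf2 was higher at 12 h (0.58), and Maf1 was not called (0.17 and 0.10).

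Of 22 genes for tRNA processing and export 0 were higher and 7 lower after induction, and 1 and 10 at 12 h. The shares of all genes called at these times stand above with the RNA polymerase III subunits and serve for the later lists too. Trnt1, which adds the CCA tail, was lower (-0.71 and -1.24), as was the RNase P and MRP subunit Pop1 (-0.997 and -1.46). Elac2 (RNase Z) and Ssb (the La protein, which binds new RNA polymerase III transcripts) were not called. Rpp38, another RNase P subunit, was lower after induction (-0.99) and higher at 12 h (0.72). Of 26 tRNA modification genes 1 was higher and 8 lower after induction, and 2 and 16 at 12 h (median -0.64). Among them Ctu1, which thiolates the wobble uridine, was lower (-1.82 and -1.62) and Alkbh8, which acts on the same base, was higher (0.70 and 0.95).

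Of 20 cytosolic aminoacyl-tRNA synthetases 0 were called after induction, and 2 were higher and 0 lower at 12 h. These were the alanine enzyme Aars (0.96) and the arginine enzyme Rars (0.74). At 24 h 2 were higher and 4 lower (all genes: 33.2% and 18.9%), among the latter the glutamine enzyme Qars (-0.70) and the tryptophan enzyme Wars (-0.56). Of the 22 mitochondrial tRNAs 2 were higher and 0 lower after induction, and 4 and 4 at 12 h, with mt-Tk (0.89) and mt-Tp (0.73) among the higher and mt-Th (-1.06) and mt-Ts2 (-1.26) among the lower. In all 7 lists 0 genes were called between the lines before induction by edgeR's quasi-likelihood test, where 0.816% of all genes were called higher and 0.14% lower. Directions of these gene lists depend on the scaling, which moved the median log2 difference of all genes at 12 h from 0.15 to -0.47 with scaling to 13 mitochondrial mRNAs, and then 0 of the RNA polymerase III subunits were higher and 10 lower and 0 of the synthetases higher and 11 lower. Over the 7 lists together 18 genes were higher and 41 lower at 12 h, where scaling with DESeq2 size factors gave 23 and 29 and scaling to 13 mitochondrial mRNAs 3 and 82.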

How the data were processed

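Paired-end reads of total RNA from 36 MEF libraries had been trimmed with cutadapt, aligned to GRCm38 with STAR and counted over genes and repeat families with TEtranscripts by the authors, who deposited whole-number counts without normalisation. The strand setting, the annotation release and the sharing of multi-mapped reads are not given in the sources used here. The table held 54842 genes, 1561 repeat families and 1 unnamed entry with at most 0.00452% of a library's counts, which was left out.

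Repeat families kept by filterByExpr were fitted with edgeR 4.0.16 in R 4.3.3 (estimateDisp and robust glmQLFit, then glmQLFTest), with the 12 groups and, as in the study's design, the replicate number as terms. Same-numbered libraries deviated together, with every correlation of their deviations from group means over 0.1, between the lines before induction and within the MSR-dCas9-Activator line (0.121 to 0.244 from uninduced to induced and 0.321 to 0.606 from induced to 24 h), but not between the lines at later times or within the MSR-dCas9-Control line. Library sizes and TMM factors came from genes alone. P-values were adjusted by Benjamini-Hochberg over the 1492 families tested, and the absolute log2 fold change over the root of F served as standard error. Genes were fitted in the same way. Calls took an adjusted p-value under 0.05 together with an absolute log2 fold change over 0.5. A count of 0 allows up to 3 counts per library, and such floors cover counting error only. Nothing was compared between families per length, because copy lengths are not in the files.

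The members and lists were chosen with earlier results of these data known. Named were the 5 families with the highest mean and, among those whose mean reached 100 normalised counts, the ones with the largest called differences, and any other family named was chosen after its values were seen. Sequences are from RefSeq and GENCODE M21 on GRCm38. Alternatives covered scaling, DESeq2 1.42.0, filters, limits, the replicate number, the libraries fitted and leaving out libraries in turn. The steps were tested on simulated data for the induced comparison, with 1443 families simulated. In these, 100 of 100 families with a 2-fold and 100 of 100 with a 4-fold change were called, with 5 false calls. The changed families were drawn from all repeat families that were not low in counts, and each library was drawn independently. Changed low-count families and the replicate order that most tRNA families shared were left out, so the share called does not carry over to tRNA families.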

Additional observations from a re-analysis of the deposited data

Results flagged for a closer look

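The response to induction differed between the lines for 4 of 56 tRNA families by edgeR's interaction test, 2 in each direction. Of all 1492 repeat families 176 were called in the higher and 147 in the lower direction. Leaving out 1 replicate or library gave 0 to 23 tRNA families. On the log2 scale the change in the MSR-dCas9-Activator line less that in the MSR-dCas9-Control line was -2.19 for tRNA-Ser-TCA_, -0.57 for tRNA-Ala-GCG, 1.48 for tRNA-Leu-CTY and 2.22 for tRNA-Met-i. The change from the end of induction to 24 h differed between the lines for 5 tRNA families. Of all 1492 repeat families 96 were called in the higher and 4 in the lower direction. Leaving out 1 replicate or library gave 1 to 16 tRNA families. The values were 1.60 for tRNA-Leu-CTA_, 1.63 for tRNA-Val-GTG, 1.81 for tRNA-Lys-AAG, 1.84 for tRNA-Glu-GAA and 1.89 for tRNA-Pro-CCA. The difference between lines departed from that before induction for 32, 41, 44 and 23 tRNA families at 3, 6, 12 and 24 h. Of all 1492 repeat families 362, 396, 600 and 297 did so in the higher direction and 198, 145, 71 and 13 in the lower.

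Among the families with too few counts to test, tRNA-Gln-CAA_ had 32 counts over the 18 MSR-dCas9-Activator libraries and tRNA-Tyr-TAT had 3, where the 18 MSR-dCas9-Control libraries had 0 of either. The counts of tRNA-Gln-CAA_ were spread over 13 libraries with at most 8 in any, and those of tRNA-Tyr-TAT came from 2 libraries.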

How the results depend on the processing

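Across 13 named families and 8 comparisons, 2353 values under alternatives were computed, of which 2226 kept direction and side of the threshold, 72 lost the call, 55 gained one and 0 reversed. Most of these families were chosen for large called differences in the same data. The comparisons include uninduced cells and induction in the MSR-dCas9-Control line, where 0 tRNA families were called. The share kept therefore does not carry over to all tRNA families. Requiring a mean of at least 100 normalised counts, which leaves 24 families, gave 14 tRNA families called between the lines after induction and 21, 21, 21 and 19 at the later times, 15 for induction and 13 from induced to 24 h in the MSR-dCas9-Activator line, and 2 for each difference between lines. Subtracting the difference before induction gave 4 after induction and 23 at 24 h. Fitting only the groups compared gave 1 in uninduced cells and 14 for the difference in induction. TMM factors from repeat families gave 7 for that difference, 8 from induced to 24 h in the MSR-dCas9-Activator line and 3 for its difference between lines, for which DESeq2 gave 3. In the MSR-dCas9-Activator line from induced to 24 h, gene library sizes without TMM gave 41 and scaling to mitochondrial mRNAs 44. With that scaling 43, 69 and 81 pathway genes were called after induction, at 3 h and at 6 h, in place of 25, 40 and 49. The cause of these shifts was not tested. The ratio of tRNA totals after induction and at 3, 6, 12 and 24 h was 1.27, 1.90, 2.17, 2.83 and 2.00 without tRNA-Ala-GCY_, and 1.80, 2.90, 3.56, 4.99 and 3.10 without tRNA-Ser-TCA(m) and the 3 alanine families, in place of 1.03, 1.31, 1.42, 1.81 and 1.48.

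Leaving out 1 replicate or library gave 0 to 0 families called in uninduced cells, 9 to 35 after induction, and 37 to 48, 41 to 47, 43 to 49 and 24 to 45 at 3, 6, 12 and 24 h. It gave 8 to 37 for induction in the MSR-dCas9-Activator and 0 to 0 in the MSR-dCas9-Control line, 12 to 39 and 0 to 1 from induced to 24 h, and 0 to 23 and 1 to 16 for the differences between lines in these changes. Totals had ratios of 1.05 to 1.16, 0.951 to 1.12, 1.13 to 1.42, 1.23 to 1.57, 1.68 to 1.95 and 1.30 to 1.65 in order of time, and pathway genes called were 0 to 0, 19 to 30, 34 to 44, 40 to 54, 56 to 57 and 38 to 49. The count after induction fell to 14 without replicate 1, to 9 without replicate 3 and to 13 without MSR-dCas9-Control induced replicate 1, and that at 24 h to 24 without replicate 3. Induction in the MSR-dCas9-Activator line gave 8 without replicate 3, and induced to 24 h gave 17 and 13 without replicates 1 and 3 and 12 without 24 h replicate 1 of that line. Both differences between lines moved by over 1.5 times with most single libraries.

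Correlations of same-numbered libraries, after group means were removed, ran from 0.105 to 0.175 between the lines before induction, from -0.00515 to 0.157 between them later, and from 0.0245 to 0.259 within the MSR-dCas9-Control line. Without the replicate block 20 tRNA families were called after induction in place of 27, 23 for induction in the MSR-dCas9-Activator line in place of 30, and 2 in place of 5 for the difference between lines from induced to 24 h.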

Other observations

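Of the repeat families for other small structural RNAs, the 7SK and 7SLRNA families, whose genes are also read by RNA polymerase III, were called higher in MSR-dCas9-Activator cells at each of the 5 times from induction on. The 7SK family differed by 0.54 after induction, 1.34 at 12 h and 0.70 at 24 h on the log2 scale, and the 7SLRNA family by 0.51, 1.25 and 0.80. The HY1 family, for a Y RNA that binds the Ro protein, differed by 3.19 at 12 h from a mean of 15.0 normalised counts. At 24 h 0 of the 4 families of its class, scRNA, were called, and the largest log2 difference among them was 0.85. The Y RNA gene Rny1 differed by 0.97 at 12 h and was not called (edgeR adjusted p 0.0534). Rny3, another Y RNA gene, differed by 1.05 and was called. The 5S family (0.29) and the U6 family (-0.10), also products of RNA polymerase III, were not called at 12 h. The LSU-rRNA_Hsa family was called higher by 6.69 at 12 h, where 1 MSR-dCas9-Activator library held 3799943 normalised counts and the others 38867 and 20322.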
